A study of Mus musculus with 4 samples.

Results

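The loci of 7 osteoclast genes, Csf1r, Tnfrsf11a, Nfatc1, Mitf, Ctsk, Acp5 and Dcstamp, were examined in monocytes of mouse bone marrow by ATAC-seq, an assay in which a transposase cuts open DNA and inserts the adapters for sequencing. Members were all peaks, that is regions of open chromatin, that overlapped a fixed window around each gene on the GRCm39 genome, and they numbered 54 of the 57090 peaks measured. Every window held at least 1 peak. None of the 54 peaks passed the test for a difference in accessibility between mandible and femur, and the fold change on the log2 scale lay between -0.50 and 0.39 at all of them.

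The study compared monocytes of the femur with monocytes of the mandible, with 2 libraries per skeletal site. The C57BL/6J mice were 2 months old, and no treatment or allele is named. The labels give all samples as male, whereas the methods of the study speak of both sexes for the monocytes. Each batch pooled 4 mice and gave 1 femur and 1 mandible library of 20000 cells each, with replicate 1 of both sites in batch A and replicate 2 in batch B. The labels call the cells CD11b+, whereas the protocol collected monocytes as the unbound fraction of a bead isolation kit. A pool hides the spread between mice, and in such bulk libraries a smaller share of open cells and a lesser opening per cell cannot be told apart. The libraries held from 27464565 to 75294068 counts in peaks, and femur replicate 2, the deepest, also lay farthest from the others. Across peaks, log2 differences from the other libraries had an SD of 0.430 to 0.498 for this library and of 0.269 to 0.342 among the other 3.

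Osteoclasts arise from cells of the monocyte and macrophage lineage. The receptor of macrophage colony-stimulating factor (M-CSF), encoded by Csf1r, keeps precursors alive and dividing, and RANK, encoded by Tnfrsf11a, receives the signal of RANKL that commits them. RANK signalling raises NFATc1, the main transcription factor of the osteoclast, which works with MITF at genes such as Ctsk, Acp5 and Dcstamp. Cathepsin K (Ctsk) degrades collagen of the bone matrix, tartrate-resistant acid phosphatase (TRAP, Acp5) is the histochemical marker of the cell, and DC-STAMP (Dcstamp) is needed for cell fusion.

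The windows covered 700 kb in all and differed in their density of open chromatin. Acp5 had 20 peaks per 100 kb, Csf1r 15, Nfatc1 10.7, Ctsk 10, Mitf 5, Tnfrsf11a 3 and Dcstamp 2. Peaks covered 10.4% of the Acp5 window and 8.55% of the Csf1r window, but 1.67% of the Tnfrsf11a window and 1.32% of the Dcstamp window. The window widths were set by hand and the genes differ in size, so these densities describe the windows and not the genes. The 54 peaks were 183 to 1840 bp long with a median of 443.5 bp, against 364 bp over all peaks, and 7 of them (13.0%) exceeded 1000 bp, against 15% of all peaks. Open chromatin was gathered in parts of the windows. In Nfatc1 a stretch of 60592 bp without a peak parted 6 peaks on one side from 10 on the other, and in Mitf 128588 bp without a peak lay before the last of the 13. In Ctsk the first 29153 bp of the window held no peak, and the 3 peaks of Tnfrsf11a lay within 10562 bp, with no peak in the last 71531 bp of the window.

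**Figure D1:**
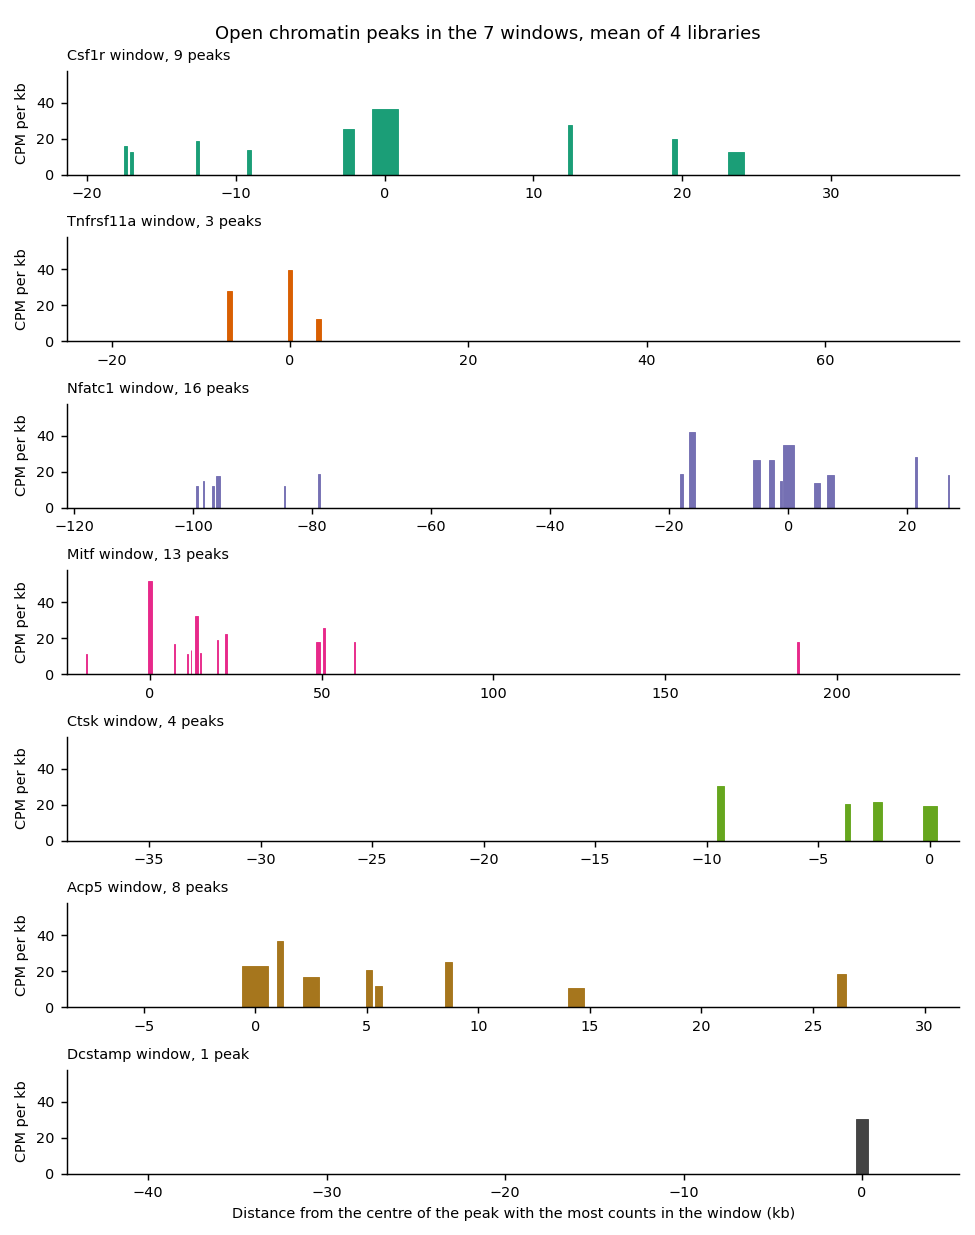
Position and level of the 54 peaks in the 7 windows. The x axis is the distance in kb from the centre of the peak with the most counts in each window, and bar height is the loess-normalized CPM per kb of peak, as the mean of 4 libraries. The densest bar is in Mitf at 51.8 CPM per kb, and long stretches without a peak are seen in Nfatc1 and Mitf.

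Accessibility was expressed as CPM, the count scaled by library depth, after loess normalization, which removes trends of the libraries with the count level, and divided by peak length where peaks were compared with each other. On this scale the median member had 18.6 CPM per kb, close to the 19.5 of all peaks. Of the 54 peaks, 31 lay below the median of all peaks. The densest peak of each window had 51.8 ± 3.49 CPM per kb (SD, n = 4 libraries of both sites) in Mitf and 42.1 ± 0.483 in Nfatc1. It had 39.5 ± 6.87 in Tnfrsf11a, 36.6 ± 4.85 in Acp5, 36.6 ± 3.83 in Csf1r, 30.5 ± 3.50 in Dcstamp and 30.5 ± 1.45 in Ctsk. Only the first neighbours in this order stood apart, since the lowest library of Mitf (46.6) was above the highest of Nfatc1 (42.5), whereas the ranges of all other neighbours overlapped. The densest peaks of the Csf1r, Acp5, Dcstamp and Ctsk windows lay between the 79.4th and 86.4th percentile of all peaks, but peaks were not tied to the genes. The only peak of the Dcstamp window began 44214 bp into its 50 kb. Among these genes Csf1r marks monocytes, and markers of other cell types were not analysed here.

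Between the skeletal sites, 27 of the 54 peaks had a log2 fold change above 0 and 27 below, with a median of 0.0059, against -0.0045 over all peaks. At an adjusted p-value under 0.05 in edgeR's quasi-likelihood test, 0 of 54 peaks were higher and 0 lower in mandible. Over all 57090 peaks these shares were 0.00525% and 0.00175%, and at such rates a count of 0 among 54 peaks is read as near the background. The adjusted p of every member was 1.0 in edgeR. At an unadjusted p-value under 0.05, 0 members were higher and 0 lower, where 1.61% and 1.10% of all peaks were, and 0.143 was the lowest unadjusted p of a member. DESeq2 also gave 0 members in either direction at an adjusted p-value under 0.05 and 0 at an unadjusted one, with no adjusted p-value for 19 of them. Over all peaks DESeq2 called 12, each higher in mandible, and its shares under an unadjusted p of 0.05 were 1.61% higher and 1.203% lower. No member exceeded 0.5 in size on the log2 scale, whereas 6.18% of all peaks did. The most that a single member varied over the 4 libraries was 2.04-fold. Within 2-fold stayed 53 of 54 members and 52845 of all 57090 peaks. The median ratio of the highest to the lowest library was 1.37 in members and 1.36 over all peaks.

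A missing call does not show equal accessibility, so the 95% confidence intervals of the differences were read as well. At 50 of 54 peaks (92.6%) the interval lay within 1 log2 unit, or a 2-fold change, on either side of 0, against 87.4% of all peaks. The 4 others were short peaks with few counts, Peak_26234 of Csf1r (up to 1.01), Peak_26778 of Nfatc1 (up to 1.003), Peak_44842 (down to -1.10) and Peak_44844 (down to -1.19) of Mitf, all named after their values were seen. Smaller differences could not be bounded in this way. Only 9 peaks (16.7%, against 21.1% of all peaks) had an interval within 0.5 log2 units on either side. The half-width of the interval had a median of 0.503, against 0.536 over all peaks, and ranged from 0.256 to 0.710 in members. Because edgeR drew the variance of each peak toward that of all peaks, these widths rest in large part on the spread over all peaks.

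**Figure D2:**
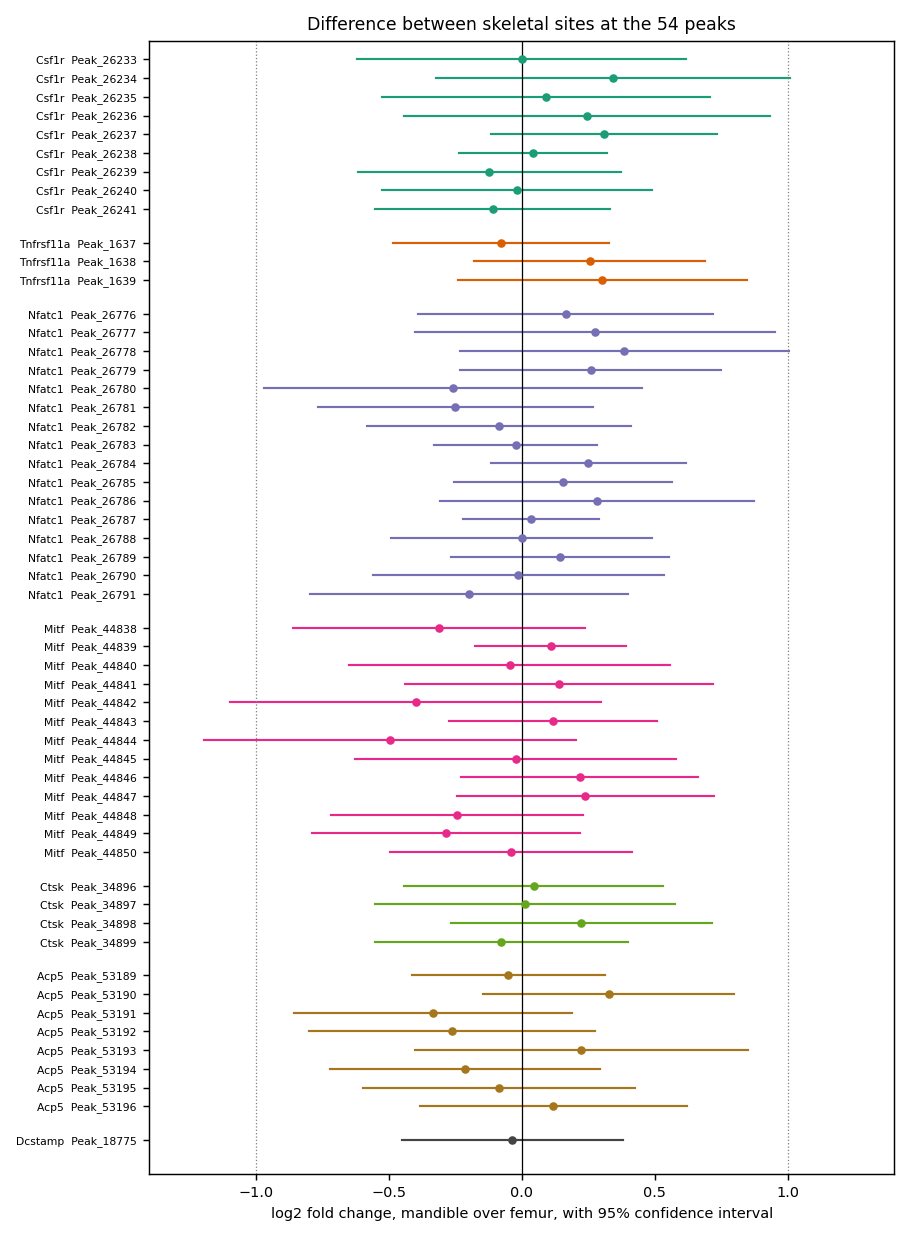
Log2 fold change of mandible over femur (x axis) at each of the 54 peaks (y axis, by locus and position), as points with 95% confidence intervals from edgeR's quasi-likelihood fit. Every interval includes 0, and dotted lines mark 1 log2 unit on either side, which 4 intervals pass.

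The receptor loci held 12 peaks, of which 7 had a log2 fold change above 0 and 5 below, with a median of 0.066. In the Csf1r window, 9 peaks summed to 126 and 119.8 CPM in the femur libraries and 116 and 142 CPM in the mandible libraries (replicates 1 and 2, as in all pairs of values that follow). The femur mean was 123 ± 4.77 (SD, n = 2) and the mandible mean 129 ± 18.01 (SD, n = 2), and the mandible libraries enclosed both femur libraries. Of the counts of this window, 50.8% fell in Peak_26238, a 1765 bp peak at chr18:61240481-61242245. It had 63.8 and 63.4 CPM in femur and 57.3 and 73.6 CPM in mandible, a log2 fold change of 0.041 (SE 0.13, 95% interval -0.24 to 0.32). The lowest unadjusted p of all members belonged to its neighbour Peak_26237, at chr18:61238528-61239291, which had 19.4 and 15.1 CPM in femur and 19.4 and 23.3 CPM in mandible. Both mandible libraries were above both femur libraries there, but mandible replicate 1 and femur replicate 1 were nearly level. Its log2 fold change was 0.31 (SE 0.20, 95% interval -0.12 to 0.74), and batch A gave 0.0017 where batch B gave 0.63. It was 0.13 without femur replicate 2, 0.18 without mandible replicate 2 and 0.50 without femur replicate 1. Pdgfrb and Hmgxb3 are the nearest protein-coding genes on either side of Csf1r in the RefSeq annotation of GRCm38.p6, and peaks were not assigned to any gene of a window.

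Tnfrsf11a had 3 peaks, which summed to 45.7 and 39.1 CPM in the femur libraries and 43.4 and 49.3 CPM in the mandible libraries. With a femur mean of 42.4 ± 4.64 (SD, n = 2) and a mandible mean of 46.4 ± 4.17 (SD, n = 2), the libraries of both sites overlapped. Peak_1638, at chr1:105714735-105715246, held the most counts and the lowest p-value of the window. Its CPM was 21.4 and 15.4 in femur and 20.2 and 23.8 in mandible, with femur replicate 2 the lowest of the 4 and a log2 fold change of 0.25 (SE 0.21, 95% interval -0.18 to 0.69). The mandible was lower in batch A (-0.090) and higher in batch B (0.62). Without femur replicate 1, which left femur replicate 2 as the only femur library, the log2 fold change was 0.51, and without femur replicate 2 it was 0.028.

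The loci of transcription factors held 29 peaks, 14 above and 15 below a log2 fold change of 0, with a median of -0.0010. The 16 peaks of Nfatc1 summed to 241 and 235 CPM in femur and 241 and 261 CPM in mandible. The femur mean of 238 ± 4.28 (SD, n = 2) and the mandible mean of 251 ± 14.2 (SD, n = 2) differed by less than the SD of the mandible libraries. This was the window with the closest libraries, the highest of which was 1.11 times the lowest. Peak_26787 (chr18:80750297-80752136), at 1840 bp the longest member, had 63.1 and 64.2 CPM in femur and 60.9 and 69.5 CPM in mandible. Its interval was the narrowest of all 54, from -0.22 to 0.29 around a log2 fold change of 0.034 (SE 0.12). That interval does not cover the choice of normalization, and the value was 0.19 with TMM and 0.20 with DESeq2. At Peak_26784 (chr18:80745385-80746423) both mandible libraries, at 27.5 and 32.01 CPM, lay above both femur libraries, at 26.9 and 23.2 CPM. The log2 fold change was 0.25 (SE 0.17, 95% interval -0.12 to 0.62), and it was 0.14 without femur replicate 2 and 0.15 without mandible replicate 2. The densest Nfatc1 peak, Peak_26783, varied least of all members, between 37.7 and 38.7 CPM over the 4 libraries. Its interval still ran from -0.33 to 0.28, as the variance used was not that of its own libraries alone.

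Mitf, which encodes a basic helix-loop-helix leucine zipper factor that binds E-boxes, had 13 peaks with 180 and 155 CPM in femur and 159 and 187 CPM in mandible. The sums were 168 ± 17.2 (SD, n = 2) and 173 ± 19.9 (SD, n = 2), and both sites had 1 library near the low and 1 near the high end. Peak_44839 (chr6:97783737-97784683), the densest of the 54 peaks and at the 94.7th percentile of all peaks, had 50.3 and 44.2 CPM in femur and 51.5 and 50.2 CPM in mandible. Its log2 fold change was 0.11 (SE 0.13, 95% interval -0.17 to 0.39), but 0.017 without femur replicate 2 and 0.21 without femur replicate 1. The largest difference of any member in either direction was at Peak_44844 (chr6:97798892-97799108), where both mandible libraries, at 2.41 and 1.83 CPM, were below both femur libraries, at 3.41 and 2.61 CPM. The log2 fold change of -0.50 had a standard error of 0.33 and an interval from -1.19 to 0.20, and it was alike in batch A (-0.50) and batch B (-0.51). Leaving out mandible replicate 2 gave -0.32, and leaving out mandible replicate 1 gave -0.71. The value was -0.66 without femur replicate 2 and -0.41 without femur replicate 1. This peak of 217 bp also held the lowest count of any member in any library, 46 in mandible replicate 2.

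Promoter sequences are shown for the motifs of PU.1, AP-1, MITF and NFAT, factors known to act at osteoclast genes. RefSeq entries of GRCm38.p6, from 250 bases before to 50 bases after a start, were used for 4 of the 7 genes, in 8 entries. Csf1r, Nfatc1 and Dcstamp are not shown. The entries were not placed on the GRCm39 windows, so whether a peak covers them was not analysed here. Both strands were searched for GAGGAA (the core bound by PU.1), TGANTCA (AP-1), CATGTG and CACGTG (E-boxes of the kind MITF binds) and TGGAAA (an NFAT core), and matches are in capitals. No matches overlapped. For each gene the entry with the most matches is given, 5′ to 3′ on the strand of the gene, and Tnfrsf11a has a single entry with none.
Ctsk, chr3:95498960-95499259, plus strand: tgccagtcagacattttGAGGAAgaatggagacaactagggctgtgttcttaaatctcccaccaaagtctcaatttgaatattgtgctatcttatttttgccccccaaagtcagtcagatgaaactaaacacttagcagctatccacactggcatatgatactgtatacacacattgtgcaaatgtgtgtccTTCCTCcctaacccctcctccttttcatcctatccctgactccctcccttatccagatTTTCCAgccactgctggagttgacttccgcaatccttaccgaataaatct
Acp5, chr9:22130549-22130848, minus strand: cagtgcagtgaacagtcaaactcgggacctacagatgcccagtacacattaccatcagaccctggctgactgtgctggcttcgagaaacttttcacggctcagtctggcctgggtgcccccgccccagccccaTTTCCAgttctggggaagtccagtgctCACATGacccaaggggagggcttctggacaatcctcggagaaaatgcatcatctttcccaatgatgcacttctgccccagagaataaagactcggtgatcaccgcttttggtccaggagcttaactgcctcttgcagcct
Mitf, chr6:97929567-97929866, plus strand: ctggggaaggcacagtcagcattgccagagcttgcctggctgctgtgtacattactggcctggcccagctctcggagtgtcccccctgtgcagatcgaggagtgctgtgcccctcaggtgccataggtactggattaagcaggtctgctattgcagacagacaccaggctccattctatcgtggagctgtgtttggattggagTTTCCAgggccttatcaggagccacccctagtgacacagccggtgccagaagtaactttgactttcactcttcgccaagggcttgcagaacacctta
Tnfrsf11a, chr1:105780473-105780772, plus strand: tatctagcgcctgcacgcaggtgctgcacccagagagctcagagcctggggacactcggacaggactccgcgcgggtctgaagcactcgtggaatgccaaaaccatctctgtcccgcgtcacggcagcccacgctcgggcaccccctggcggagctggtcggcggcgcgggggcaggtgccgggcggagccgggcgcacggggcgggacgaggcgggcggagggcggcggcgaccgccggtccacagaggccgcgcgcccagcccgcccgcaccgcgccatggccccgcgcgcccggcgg
The Ctsk promoter held 2 matches of GAGGAA and 1 of TGGAAA. Acp5 held 1 CATGTG and 1 TGGAAA in the entry shown and none of the 5 motifs in its 2 other entries. Mitf had 1 TGGAAA in the entry shown and no match in its 2 others. Among all 32851 promoter entries, 28.3% held GAGGAA, 21.4% TGGAAA, 14.2% CATGTG, 7.81% TGANTCA and 7.15% CACGTG, so single matches of this kind are common. The Tnfrsf11a promoter was the richest in G and C of the 8 entries, at 76.7%, against 43.7% for Ctsk and a median of 52.7% over all entries. A match describes the letters and not a bound site.

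The loci of resorption and fusion held 13 peaks, 6 above and 7 below a log2 fold change of 0, with a median of -0.036. Ctsk had 4 peaks, which summed to 33.2 and 33.9 CPM in femur and 32.02 and 37.2 CPM in mandible, or 33.6 ± 0.476 (SD, n = 2) and 34.6 ± 3.69 (SD, n = 2). The femur libraries lay between the mandible libraries. Peak_34899 (chr3:95428363-95428985), with the most counts of the window, had 12.9 and 11.7 CPM in femur and 10.0 and 13.3 CPM in mandible. Its log2 fold change was -0.077 (SE 0.23, 95% interval -0.55 to 0.40). Peak_34898 (chr3:95426134-95426551), the peak of lowest p-value, had 8.29 and 8.11 CPM in femur and 8.59 and 10.6 CPM in mandible, so that the groups did not overlap, with a log2 fold change of 0.22 (SE 0.23). Without mandible replicate 2 it was 0.070, without mandible replicate 1 0.37, and with library size as the only scaling 0.077. Arnt and Ctss, which encodes another cathepsin, are the protein-coding neighbours of Ctsk in GRCm38.p6.

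At Acp5, the 8 peaks summed to 78.1 and 85.4 CPM in femur and 74.5 and 83.6 CPM in mandible, with means of 81.8 ± 5.21 (SD, n = 2) and 79.0 ± 6.44 (SD, n = 2). Acp5 was the one window in which the sum was lower in mandible in both batches, by -0.068 in batch A and -0.031 in batch B on the log2 scale. Peak_53189 (chr9:22027848-22029029), with 33.8% of the counts of the window, had 25.4 and 30.2 CPM in femur and 26.2 and 27.6 CPM in mandible. Its log2 fold change was -0.051 (SE 0.17, 95% interval -0.41 to 0.31). Adjoining peaks of this window had differences of opposite sign, neither of which passed the test. Peak_53190 (chr9:22029409-22029675) was higher in both mandible libraries, at 10.99 and 10.8 CPM, than in both femur libraries, at 9.003 and 8.37 CPM. The replicates were close, and the log2 fold change of 0.33 had a standard error of 0.22 and an interval from -0.15 to 0.80, and with library size as the only scaling it was 0.19. The next peak, Peak_53191 (chr9:22030578-22031274), had 12.2 and 13.4 CPM in femur and 7.67 and 12.7 CPM in mandible, with mandible replicate 1 far below the other 3 libraries. Its log2 fold change was -0.33 (SE 0.25), with -0.024 left without mandible replicate 1 and -0.74 without mandible replicate 2.

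Dcstamp had a single peak in its window, Peak_18775 (chr15:39634214-39634871), with 22.9 and 17.8 CPM in femur and 18.8 and 20.9 CPM in mandible. The femur libraries enclosed both mandible libraries. The femur mean was 20.4 ± 3.64 (SD, n = 2), the mandible mean 19.8 ± 1.54 (SD, n = 2), and the log2 fold change was -0.036 (SE 0.20, 95% interval -0.45 to 0.38). Rims2 and Dpys are the protein-coding neighbours of Dcstamp in GRCm38.p6.

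**Figure D3:**
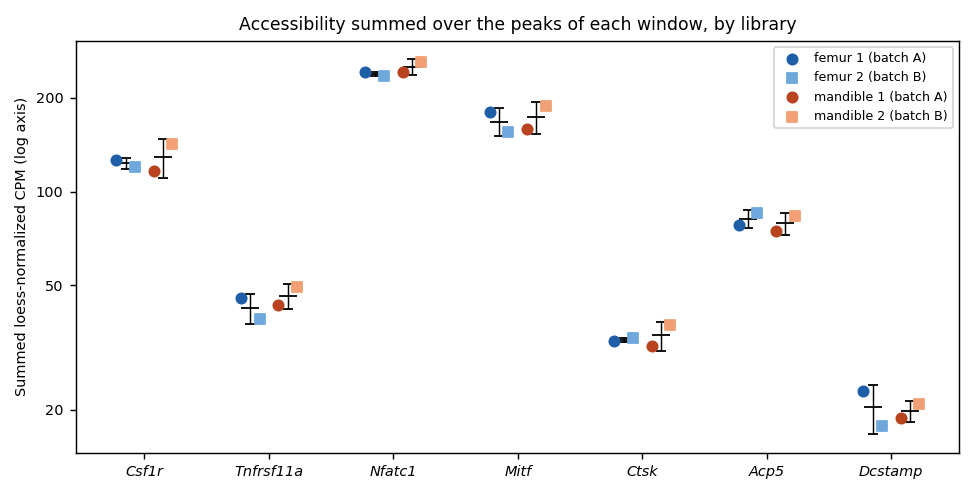
Loess-normalized CPM summed over the peaks of each window, in each of the 4 libraries (log axis). Circles are batch A and squares batch B, blue shades are femur and red or orange shades mandible, and black bars give the mean and SD of the 2 libraries of a site. Libraries of both sites overlap in all 7 windows, and in 5 of them mandible replicate 2 is the highest.

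Summed over all 54 peaks, the windows held 727 and 686 CPM in femur and 684 and 780 CPM in mandible. Mandible replicate 2 was the highest library in 5 of 7 windows and femur replicate 2 the lowest in 4. The sums were not tested, and a two-sided exact permutation test of 2 against 2 libraries cannot reach a p under 0.333. The total and 6 of the 7 window sums differed in sign between the batches. The sum over all members was lower in mandible in batch A, by -0.087 on the log2 scale, and higher in batch B, by 0.19. In those 6 windows the difference was negative in batch A and positive in batch B, and in Acp5 it was negative in both. The batch A difference of Nfatc1 was close to 0, at -0.0014, and that of Ctsk was -0.053. Of the 54 peaks, 20 (37.0%) were lower in mandible in batch A and higher in batch B, against 28.6% of all peaks. The reverse, higher in batch A and lower in batch B, was seen at 9 members (16.7%, against 29.1%). Another 9 members were higher in both batches (16.7%, against 20.3% of all peaks) and 16 lower in both (29.6%, against 22.0%). The sign was thus the same in both batches at 25 members, or 46.3%, against 42.3% of all peaks. In 7 members (13.0%) both mandible libraries were above both femur libraries, and in 10 (18.5%) both were below. The same held for 13.3% and 13.8% of all peaks.

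**Figure D4:**
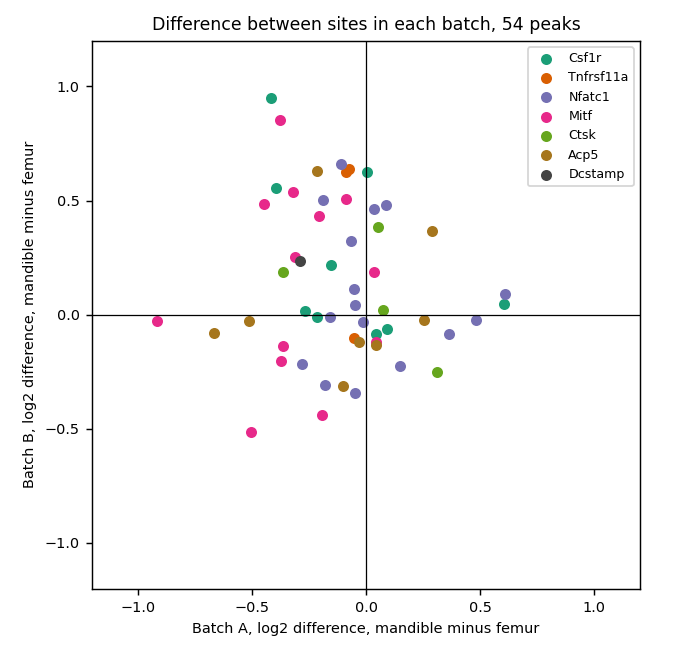
Log2 difference in accessibility, mandible minus femur, in batch A (x axis) against batch B (y axis) for the 54 peaks, coloured by locus. The upper left corner of the plot, lower in mandible in batch A and higher in batch B, holds 20 of the points.

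Femur replicate 2 was the lowest library at 20 of 54 peaks (37.0%, against 32.6% of all peaks) and the highest at 16 (29.6%, against 33.1%), shares near those of all peaks. Mandible replicate 2 was the highest at 20 peaks (37.0%, against 26.6%) and mandible replicate 1 the lowest at 17 (31.5%, against 21.7%). The even split of 27 peaks above and 27 below a log2 fold change of 0 depended on the libraries. It was 28 and 26 without femur replicate 2, 31 and 23 without femur replicate 1, 33 and 21 without mandible replicate 1, and 19 and 35 without mandible replicate 2. Without femur replicate 1, 4 members had an unadjusted p-value under 0.05, all higher in mandible. They were Peak_26237 of Csf1r (log2 fold change 0.50), Peak_1638 of Tnfrsf11a (0.51), Peak_26784 of Nfatc1 (0.36) and Peak_44847 of Mitf (0.58), the last of these named after its values were seen. That is 7.41% of members against 16.4% of all peaks, and the lowest adjusted p of a member in edgeR was 0.062. In that fit the spread came from the mandible libraries alone, and the lone femur library was assumed to vary like them. The share given for all peaks in that fit counts both directions. The part of femur replicate 2 in these differences was not tested.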

How the data were processed

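After trimming (Trimmomatic) and alignment to GRCm39 (Bowtie2), the authors dropped reads of poor mapping quality and duplicates, and called peaks with Genrich, in its mode for ATAC data that centres intervals on the cut sites, on each pair of replicates before merging both sites. The deposited values are raw read counts per merged peak, made by the authors with featureCounts 2.0.6 (maximum fragment length 1000 bp).

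All 57090 peaks were fitted with edgeR 4.0.16, on limma 3.58.1 and R 4.3.3. Each library received a loess offset against the mean log CPM (pseudocount 0.5 scaled to depth), and glmQLFit and glmQLFTest were run with skeletal site as the only term. The edgeR filter removed 0 peaks. The Benjamini-Hochberg adjustment ran over all peaks, and the fit was tested on simulated data. Standard errors (SE) were taken as log2 fold change over the root of F, and intervals use the t distribution of the fit. Intervals cover the spread between these libraries of pooled mice, not between mice. The fit drew the variance of each peak toward that of all peaks (15.7 prior degrees of freedom). An interval thus does not rest on the replicates of its own peak alone.

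The windows and members, and the rule for named peaks, were chosen with earlier results of these data known. In each window the peak with the most counts and the peak of lowest p-value were named, plus the 5 members of lowest p-value. Libraries with the same number share a batch in the labels and pooled mice in the study, so the numbers pair them, and their deviations from the site means correlated at -0.167 across peaks. Raw counts of replicates, scaled by library totals without the loess offsets, differed beyond sampling noise (chi-square per degree of freedom of 23.3 in femur and 6.7 in mandible). This measure also rises with depth, so the 2 values do not compare the sites. Alternatives were TMM, library size alone, DESeq2 1.42.0, other filters, a replicate block, thinning to the smallest total, windows holding whole peaks, a looser threshold and each library left out. An annotation or genome of GRCm39 was not used here, so start sites, introns, peak sequences, other osteoclast genes and markers of other cell types were not analysed.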

Additional observations from a re-analysis of the deposited data

How the results depend on the processing

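No member was called in either direction under any alternative, from TMM to a library left out, where the count of members at an adjusted p-value under 0.05 was 0 in each direction. The filter of at least 1 count kept the same 57090 peaks, and all members lay whole inside their windows. These alternatives therefore repeated the main fit and could not differ from it. With the replicate block 0 members were called, while the calls over all peaks rose from 4 to 60. A crossed pairing, chosen after seeing the data because the pairs correlated below 0, gave 0 members and 207 peaks in all. At an unadjusted p-value under 0.05, 1 member was found with library size alone (Peak_44844 of Mitf, lower in mandible, 1.85% of members against 5.71% of all peaks) and 0 to 4 with a library left out, the 4 without femur replicate 1 (7.41% against 16.4%). Without mandible replicate 2 there were 2 (Peak_44842 of Mitf and Peak_53191 of Acp5, both lower, 3.70% against 1.41%). The shares of all peaks in these fits count both directions, and with library size alone 4.535% of all peaks were lower in mandible at that threshold. In that fit 20 members lay above and 34 below a log2 fold change of 0.

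Library size alone moved the median of all peaks from -0.0045 to -0.12, and with it the median of the members to -0.10. The locus medians were then -0.13 in Csf1r, 0.13 in Tnfrsf11a, 0.015 in Nfatc1 and -0.21 in Mitf. Those of Ctsk, Acp5 and Dcstamp were -0.15, -0.17 and -0.097. The Ctsk median, 0.029 with loess, was -0.048 with TMM, -0.038 with DESeq2 and -0.020 after thinning. That of Csf1r, 0.041 with loess, was -0.033 with TMM and -0.024 with DESeq2, but 0.079 after thinning. The Mitf median, -0.042 with loess, was -0.11 with TMM, -0.11 with DESeq2 and -0.10 after thinning. That of Acp5, -0.068 with loess, was -0.053 with DESeq2 and -0.095 after thinning. Leaving out 1 library at a time, the medians ranged from -0.11 to 0.11 in Csf1r, from -0.012 to 0.095 in Nfatc1, from -0.0099 to 0.16 in Ctsk, from -0.18 to 0.074 in Acp5, from 0.018 to 0.39 in Tnfrsf11a and from -0.14 to 0.21 in Mitf. Lowest values came without mandible replicate 2 in Csf1r and Nfatc1 and without femur replicate 1 in Ctsk and Acp5.

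The log2 fold changes of the 13 named peaks kept their direction in 146 of 156 combinations of peak and alternative. These include the filter of at least 1 count, which repeated the main fit and so kept every direction. The sign turned at Peak_53189 with TMM (0.019) and DESeq2 (0.029) and at Peak_18775 with DESeq2 (0.0089). The size also moved at some peaks with the most counts of their window. Peak_26238, 0.041 with loess, was 0.20 with TMM and 0.21 with DESeq2. Peak_26787, 0.034 with loess, was 0.19 and 0.20, and Peak_44839, 0.11 with loess, was 0.23 and 0.24. With both methods, values were lower than with loess at Peak_44844, Peak_34898, Peak_34899, Peak_53190 and Peak_53191. Leaving out a library gave ranges that crossed 0 at Peak_26238 (-0.14 to 0.21), Peak_26787 (-0.060 to 0.13), Peak_34899 (-0.29 to 0.11), Peak_53189 (-0.17 to 0.087) and Peak_18775 (-0.21 to 0.17). None of these peaks was called in any fit. The cause of the shifts was not tested. A GC correction was not run.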
